A study of Mus musculus with 64 samples.

Results

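The genes described here are 10 identity genes of GABAergic interneurons, taken by symbol from the 18432 genes of the expression table: *Gad1*, *Gad2*, *Slc32a1*, *Pvalb*, *Sst*, *Vip*, *Lamp5*, *Reln*, *Lhx6* and *Calb2*. All 10 were found, none was at 0 in any library, and all passed the filter on low values in every comparison. They were measured by RNA-seq of bulk tissue from mice that carry the Cyfip2 Arg87Cys knock-in on one allele (KI) and from their wild-type littermates (WT), all C57BL/6N. Frontal cortex and hippocampus were dissected from both hemispheres at 4 ages, given as postnatal week (PWK): 1 as neonates, and 7, 14 and 28 as adults. Each of the 16 groups of genotype, region and age held 4 libraries from 4 mice, 64 libraries in all. CYFIP2 is a subunit of the WAVE regulatory complex, which drives branched actin assembly, and the substituted residue is one that is altered in children with an early epileptic encephalopathy. The allele is present in every cell of the KI mice, so that no cell type was targeted, and the tissue was not sorted.

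Interneurons are the local inhibitory neurons of the cortex and hippocampus. They make GABA from glutamate with the glutamate decarboxylases encoded by *Gad1* (GAD67) and *Gad2* (GAD65), and load it into vesicles with the transporter encoded by *Slc32a1* (VGAT). Their classes are told apart by further genes: *Pvalb* encodes the calcium buffer of fast-spiking basket and chandelier cells, *Sst* and *Vip* encode neuropeptides of dendrite-targeting and of disinhibitory cells, and *Lamp5* encodes a lysosome-associated membrane protein of neurogliaform cells. *Lhx6* is the transcription factor of cells born in the medial ganglionic eminence, *Reln* encodes a secreted glycoprotein, and *Calb2* encodes calretinin. Several of these transcripts also occur outside interneurons: *Lamp5* in cortical pyramidal cells, *Reln* in Cajal-Retzius cells, and *Calb2* in hippocampal mossy cells, young granule cells and the olfactory bulb.

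In the GRCm38 annotation 5 members lie on chromosome 2. These are *Gad1* (ENSMUSG00000070880, chr2:70553072-70602014), *Gad2* (ENSMUSG00000026787, chr2:22622205-22693874), *Slc32a1* (ENSMUSG00000037771, chr2:158610767-158615748) and *Lamp5* (ENSMUSG00000027270, chr2:136052239-136069917), all on the plus strand, and *Lhx6* (ENSMUSG00000026890, chr2:36081953-36105408) on the minus strand. *Vip* (ENSMUSG00000019772, chr10:5639218-5647617) is on the plus strand. The other 4 are on the minus strand: *Pvalb* (ENSMUSG00000005716, chr15:78191114-78206400), *Sst* (ENSMUSG00000004366, chr16:23889573-23890958), *Reln* (ENSMUSG00000042453, chr5:21884454-22344702) and *Calb2* (ENSMUSG00000003657, chr8:110137502-110168210). Antisense genes overlap *Gad1* (*Gad1os*) and *Slc32a1* (*Gm14205*). The kit marks strand, but whether quantification used it is not given in the sources used here, so reads of the pairs may be shared.

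The promoters of *Sst* and *Vip* are textbook cases of control by the cAMP response element, TGACGTCA, whose half-site is TGACG. On the opposite strand this half-site reads CGTCA. The 250 bases upstream of each RefSeq transcript start on GRCm38.p6 were searched on both strands for these letters, and the full element necessarily contains the half-site. The 9 members with a RefSeq entry had 13 windows, of which 3 held the half-site, 1 each of *Sst*, *Vip* and *Gad2*, and *Sst* alone held the full element. *Calb2* had no entry. Among all 32851 such windows, 1.55% held the full element and 17.8% the half-site. The 3 matches are shown because all 3 genes differed between the genotypes in the cortex at PWK 28. *Lamp5* differed more, *Slc32a1* and *Pvalb* were also called there, and the windows of these 3 genes held no match. Of the genes with a match, *Sst* and *Gad2* rose there and *Vip* fell. Each line gives 30 bases in the direction of transcription, with the match in capitals.
Sst: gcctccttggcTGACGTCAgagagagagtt
Vip: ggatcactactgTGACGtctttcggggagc
Gad2: ccatttcccttcCGTCActctctcatctcc
These stretches are chr16:23890874-23890903 (minus strand), chr10:5639127-5639156 (plus strand) and chr2:22622282-22622311 (plus strand). The matches began 48, 79 and 33 bases before the RefSeq starts. In *Sst* and *Gad2* they fall inside the wider gene bounds of the GENCODE annotation. A match describes the letters and is no evidence of binding.

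The deposited values are DESeq2-normalized, and a library's values summed to 29.2 to 32.6 M. The regions could be told apart by their markers. *Zbtb20* ranged from 1449 to 3810 in cortical and from 9200 to 15110 in hippocampal libraries, and *Prox1* from 360.4 to 679 and from 2980 to 6272. The cortical dissections were not uniform. In 7 of the 32 cortical libraries, the olfactory bulb marker *Cdhr1* exceeded 2 times, or the striatal marker *Adora2a* 4 times, the median of its age: WT replicate 1 at PWK 1, KI replicate 1 at PWK 7, KI replicates 2 and 3 and WT replicate 3 at PWK 14, and WT replicates 3 and 4 at PWK 28. Olfactory bulb and striatum are rich in GABAergic neurons. Cortical results are therefore also given without these 7 libraries where that changes a member's call or moves a called value by more than 1.5 times, a choice made after seeing the data. *Cyfip2* itself cannot check the labels, because the allele differs by an amino acid substitution. Its normalized value at PWK 28 in the cortex was 34730 ± 608 (SD, n = 4) in WT and 25730 ± 3577 (SD, n = 4) in KI mice.

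In adult WT cortex the members spanned a wide range of levels per kilobase of their longest coding transcript. At PWK 28 the order of normalized values per kilobase in the cortex was *Sst* (4343 ± 503), *Gad1* (3618 ± 697), *Lamp5* (2816 ± 195), *Vip* (1174 ± 90.5), *Gad2* (979 ± 145), *Pvalb* (850 ± 123), *Calb2* (590.5 ± 473), *Slc32a1* (558 ± 42.8), *Reln* (291 ± 39.2) and *Lhx6* (144 ± 11.3; all SD, n = 4). In this order the intervals of mean ± SD separated *Lamp5* from *Vip*, *Slc32a1* from *Reln* and *Reln* from *Lhx6*, and those of the other neighbours overlapped. In the hippocampus *Sst* (4498 ± 144) and *Gad1* (2695 ± 162) again led in value per kilobase, *Gad2* (752 ± 53.1) came next, and *Lamp5* stood at 486.5 ± 34.4 and *Vip* at 358 ± 29.0 (SD, n = 4).

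WT mice were compared across age to show when each gene reached its adult level. Between PWK 1 and PWK 7, 8 of the 10 members changed in the cortex and 8 in the hippocampus (limma, adjusted p under 0.05), against 65.5% and 62.2% of all genes tested. In the cortex 6 rose and 2 fell, where 33.2% and 32.3% of all genes did, and in the hippocampus 5 rose and 3 fell, where 31.8% and 30.4% did. *Pvalb*, *Lamp5*, *Vip*, *Gad1* and *Gad2* rose in both regions. *Pvalb* was nearly silent in the neonatal cortex, with 3.51, 2.97, 9.86 and 6.05 in the 4 libraries, and reached 774, 760, 872 and 736 at PWK 7. Every adult library thus lay far above every neonatal one, a log2 difference of 7.01 (SE 0.22, adjusted p = 8.71e-15), and in the hippocampus the difference was 5.18 (SE 0.23, adjusted p = 2.77e-12). *Lamp5* rose by 2.82 in the cortex and 1.31 in the hippocampus, *Vip* by 1.73 and 0.89, and *Gad1* by 1.29 and 0.87 on the log2 scale. *Gad2* rose less than *Gad1*, by 0.62 and 0.25, and the latter call was lost in a fit over all 64 libraries (adjusted p = 0.113). The vesicular transporter *Slc32a1* was not called in either region, at 0.00 and -0.17.

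*Reln* and *Lhx6* fell in both regions over the same interval. *Reln* dropped by 1.42 in the cortex and by 1.69 in the hippocampus, from 7555 ± 968 to 2811 ± 238 and from 7967 ± 470 to 2476 ± 330 (SD, n = 4). *Lhx6*, which acts while these cells migrate and mature, dropped by 1.05 and by 0.96. *Calb2* dropped by 1.27 in the hippocampus. Its cortical difference of -1.01 missed the threshold (adjusted p = 0.0616) and was called at -0.87 (adjusted p = 0.000108) without the libraries high in olfactory bulb or striatal markers. *Sst* was already near its adult level in the neonatal hippocampus (2852 ± 127 against 2805 ± 360; adjusted p = 0.792) and rose by 0.54 in the cortex. Between PWK 7 and PWK 28, 2 members rose in the cortex (*Gad1* by 0.51 and *Vip* by 0.29; 20.5% of all genes were called and 9.82% rose) and 1 in the hippocampus (*Vip* by 0.43; 17.5% were called and 7.54% rose). The *Vip* calls were lost in 7 of 16 cortical fits that left out 1 library (adjusted p up to 0.142) and in 9 of 16 hippocampal ones (up to 0.131), the libraries concerned being spread over ages. Without the marker-high libraries the *Gad1* rise in the cortex was 0.28 (adjusted p = 0.00801), and *Vip* lost its call there at 0.30 (adjusted p = 0.13). Cortical *Calb2* stood at 1.22 (adjusted p = 0.0682), and at -0.006 without those libraries. The rule compared libraries within an age, so it did not remove a difference in markers between ages. WT replicates 1 and 2 at PWK 28, which were kept, had *Adora2a* at 477 and 330. At PWK 7 the WT cortical libraries ranged from 75.0 to 211. The part of this difference in the *Gad1* rise was not tested. The other 7 members were not called in the cortex: *Reln* was at 0.27 (adjusted p = 0.0563), *Gad2* at 0.23, *Slc32a1* at 0.15, *Lhx6* at 0.13, *Pvalb* at 0.07, *Sst* at 0.02 and *Lamp5* at -0.08. In the hippocampus the 9 not called were *Sst* at 0.22, *Reln* at 0.15, *Gad1* at 0.12 (adjusted p = 0.0899), *Lamp5* at 0.08, *Slc32a1* at 0.05, *Calb2* at -0.01, *Gad2* at -0.015, *Lhx6* at -0.04 and *Pvalb* at -0.17.

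WT hippocampus and cortex were compared to show where each gene is higher. Across PWK 7, 14 and 28, 8 of 10 members differed between hippocampus and cortex, against 57.8% of all genes tested. Of these, 1 was higher and 7 were lower in the hippocampus, where 29.7% and 28.1% of all genes were. *Lamp5* was lower in the hippocampus, at -2.54 on the log2 scale, as were *Vip* (-1.69) and *Pvalb* (-0.74), with no overlap between the 12 libraries of either region. *Calb2* was higher in the hippocampus by 1.06, and by 1.55 without the marker-high libraries. *Slc32a1*, *Reln*, *Gad2* and *Lhx6* were called lower there at -0.26, -0.16, -0.14 and -0.14, and the last 3 calls were lost with total-sum scaling and without the marker-high libraries. That of *Gad2* was also lost in 9 of 24 fits without 1 library (adjusted p from 0.0552 to 0.081) and in the fit over all 64 libraries (adjusted p = 0.14). *Gad1* (-0.10, adjusted p = 0.176) and *Sst* (-0.03, adjusted p = 0.728) were not called. In neonates 5 members were called, against 34.7% of all genes (16.1% higher, 18.6% lower): *Calb2* (1.88), *Sst* (0.44) and *Gad1* (0.40) were higher and *Lamp5* (-1.19) and *Vip* (-1.01) lower in the hippocampus. *Gad2* stood at 0.25 (adjusted p = 0.191) and was called at 0.41 (adjusted p = 0.00178) without the marker-high library. *Pvalb* stood at 1.18 (adjusted p = 0.058), with 14.0 ± 6.83 in the hippocampus and 5.596 ± 3.14 in the cortex (SD, n = 4), and was called with a replicate block (adjusted p = 0.0434). *Slc32a1*, *Reln* and *Lhx6* were not called. Both regions were taken from each mouse, but which libraries share a mouse is not labelled, and apart from that block these fits treat the libraries as independent.

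**Figure D1:**
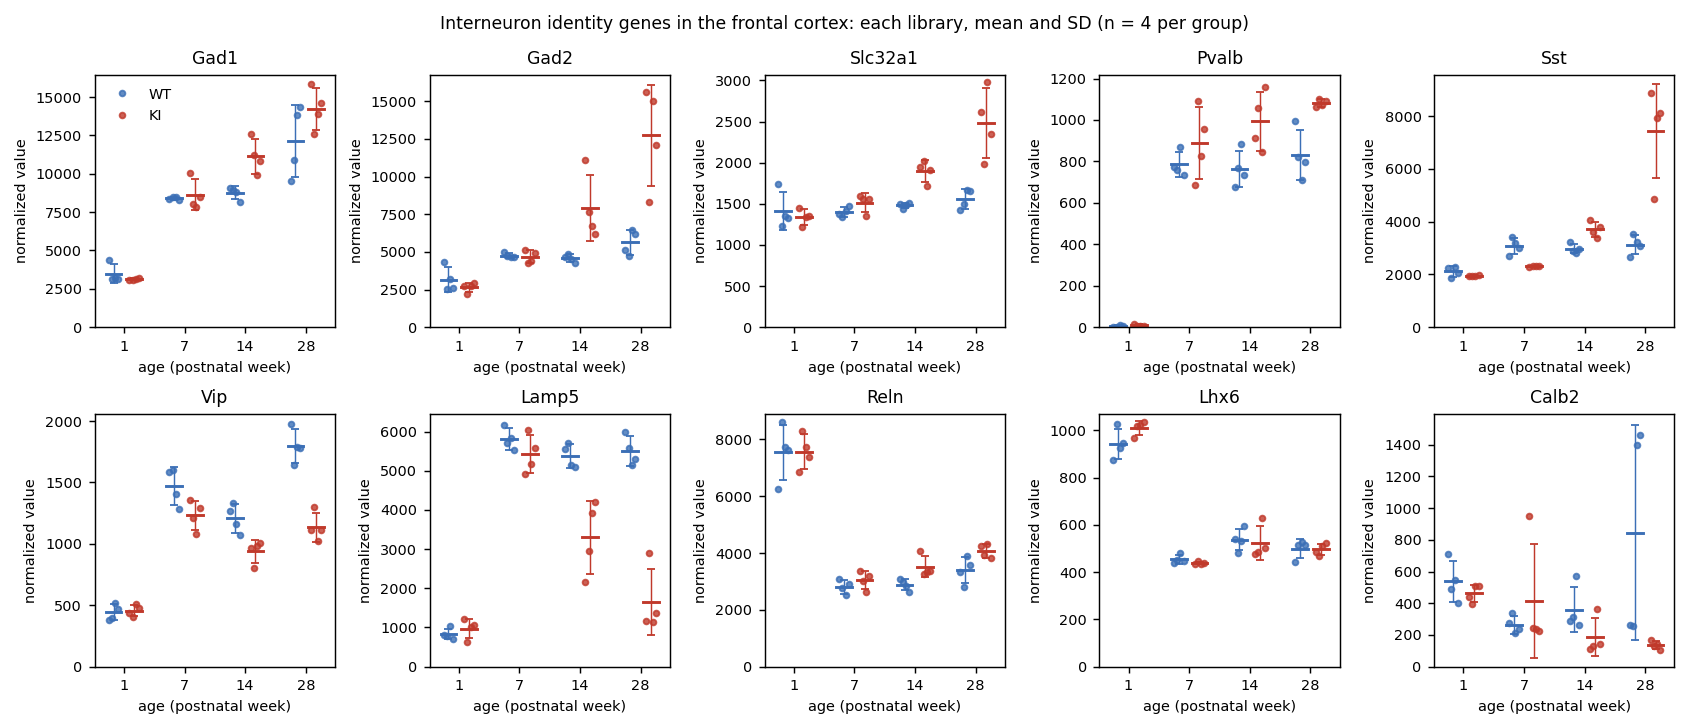
Normalized value (y axis, from 0) of each member in each cortical library by postnatal week (x axis), with WT in blue and KI in red; thick bars are means and thin bars SD (n = 4). In KI mice *Gad2* and *Sst* lie above and *Vip* and *Lamp5* below every WT library at PWK 28, while WT *Calb2* splits into 2 low and 2 high libraries.

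The KI and WT groups were compared at each age to ask when the mutation alters these genes. At PWK 1 and PWK 7 limma called none of the 10 members in either region. At an unadjusted p under 0.05 there were 0 at PWK 1 and 2 at PWK 7 in the cortex, and 1 and 1 in the hippocampus. The share of all genes under that unadjusted threshold was not counted, so these counts have no background beside them. Few genes were called in these comparisons at all: 0.00546% and 0.00545% of those tested in the cortex and 0.0109% and 0.0218% in the hippocampus. The 2 in the cortex were *Sst* and *Vip*, and the hippocampal one was *Sst* at both ages. At PWK 7 cortical *Sst* was 2299, 2338, 2330 and 2302 in KI mice and 2707, 3433, 3192 and 3001 in WT mice. The KI libraries were all lower and close together, a log2 difference of -0.41 (95% interval -0.54 to -0.27, adjusted p = 0.0949). Without WT replicate 1 the adjusted p was 0.0076 at -0.47. Cortical *Vip* at PWK 7 was 1355, 1209, 1076 and 1288 in KI and 1585, 1605, 1403 and 1286 in WT mice, with some overlap (-0.25, adjusted p = 0.422). Hippocampal *Sst* at PWK 7 was 2458, 2163, 1786 and 2288 in KI and 2476, 3169, 3057 and 2517 in WT mice, again without overlap (-0.37, adjusted p = 0.625). It was the one member whose KI and WT libraries did not overlap in either region at PWK 7, where 4.62% and 3.87% of all genes did not overlap. At PWK 1 hippocampal *Sst* was 2486, 2677, 2369 and 2548 in KI and 2839, 2679, 2962 and 2928 in WT mice (-0.18, adjusted p = 0.808). That was the one member without overlap in the hippocampus at PWK 1, where 3.26% of all genes had none, and in the cortex no member had none, against 3.15%.

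Adult KI cortex showed a split among the members. At PWK 14, 4 members rose and 2 fell, against 5.18% of all genes called (2.48% higher, 2.7% lower). At PWK 28, 4 rose and 3 fell, against 22.2% of all genes called (12.2% higher, 10% lower). The median log2 difference of the members was 0.30 and 0.26, beside -0.002 and -0.003 over all genes tested. Their KI and WT libraries did not overlap in 7 members at each age, where 14.2% and 25.8% of all genes did not overlap. In bulk tissue, fewer cells of a type and less RNA per cell cannot be told apart, and neither can more cells and more RNA per cell.

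Among the genes of GABA synthesis and release, *Gad2* rose most. At PWK 14 its values were 11088, 7672, 6711 and 6162 in KI cortex and 4647, 4887, 4513 and 4267 in WT cortex. At PWK 28 they were 15594, 8293, 14995 and 12078 in KI and 5131, 4721, 6461 and 6190 in WT cortex. All KI libraries lay above all WT libraries at both ages, and the KI libraries spread more widely. The log2 differences were 0.75 (SE 0.15, adjusted p = 0.0177) and 1.15 (SE 0.18, adjusted p = 0.00187). *Slc32a1* was 1954, 2024, 1714 and 1917 in KI and 1493, 1440, 1489 and 1509 in WT cortex at PWK 14, a rise of 0.36 (adjusted p = 0.0107). At PWK 28 it rose by 0.65 (adjusted p = 0.00297), from 1562 ± 120 to 2480 ± 423 (SD, n = 4). *Gad1* rose by 0.34 at PWK 14 (adjusted p = 0.0251) and differed by 0.24 at PWK 28, where it was not called (adjusted p = 0.193). The WT *Gad1* values at PWK 28 were 9501 and 10866 in replicates 1 and 2 and 13828 and 14364 in replicates 3 and 4, the libraries high in *Cdhr1*, while KI values ran from 12560 to 15816. Without those 2 WT libraries the *Gad1* difference was 0.48 and was called (adjusted p = 0.0319).

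The markers of cells born in the medial ganglionic eminence did not move as one. *Sst* was 4067, 3596, 3371 and 3792 in KI and 3212, 2905, 2802 and 2970 in WT cortex at PWK 14, a rise of 0.32 (SE 0.07, adjusted p = 0.0251). At PWK 28 it was 8861, 4853, 7931 and 8108 in KI and 2667, 3534, 3248 and 3076 in WT cortex. Every KI library lay above every WT library, and the rise was 1.22 (SE 0.17, adjusted p = 0.000882). *Pvalb* was 1061, 1103, 1071 and 1092 in KI and 996, 819, 709 and 797 in WT cortex at PWK 28. The groups did not overlap, and *Pvalb* was called at 0.39 (adjusted p = 0.0158), but the call was lost at 0.26 (adjusted p = 0.15) without the WT libraries high in *Cdhr1* and in a fit over all 64 libraries (adjusted p = 0.461). At PWK 14 *Pvalb* stood at 0.37 (adjusted p = 0.0821). *Lhx6* showed no such difference, at -0.04 (95% interval -0.27 to 0.18) and -0.01 (95% interval -0.20 to 0.18).

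*Lamp5* and *Vip* fell. *Lamp5* was 2165, 2952, 3911 and 4205 in KI and 5563, 5699, 5162 and 5092 in WT cortex at PWK 14. At PWK 28 it was 1169, 2898, 1131 and 1356 in KI and 6002, 5589, 5138 and 5295 in WT cortex. KI libraries lay below WT libraries at both ages, by 0.75 (SE 0.17, adjusted p = 0.0311) and by 1.86 (SE 0.25, adjusted p = 0.000766) on the log2 scale. At PWK 14 *Lamp5* was lowest and *Gad2* highest in KI replicate 1 and the reverse in replicate 4, and at PWK 28 KI replicate 2 had the highest *Lamp5* and the lowest *Gad2* and *Sst*. *Vip* was 1112, 1297, 1019 and 1112 in KI and 1979, 1643, 1786 and 1777 in WT cortex at PWK 28, a decrease of 0.66 (SE 0.09, adjusted p = 0.000689). At PWK 14 it fell by 0.37 (adjusted p = 0.0459). *Reln* stood at 0.28 and 0.27 and was not called at either age (adjusted p = 0.0624 and 0.0637).

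The PWK 14 calls were less secure than those at PWK 28. Leaving out 1 of the 8 libraries left between 1 and 7 members called at PWK 14 and 7 or 8 at PWK 28. At PWK 14, *Slc32a1* was called in all 8 such fits, *Gad2* in 5, *Sst* in 4, *Gad1* and *Lamp5* in 3 and *Vip* in 2. In a fit over all 64 libraries the *Sst* call was lost (adjusted p = 0.0843). Without WT replicate 3, *Slc32a1* alone was called, and without KI replicate 3, *Pvalb* (adjusted p = 0.0441) and *Calb2* joined the others apart from *Vip*. The *Gad1* and *Lamp5* calls were lost without KI replicate 2 or any 1 of the WT libraries (adjusted p from 0.0608 to 0.0899). The *Gad2* call was lost without WT replicate 1, 3 or 4 (0.0546, 0.051 and 0.0529), and the *Sst* call without KI replicate 2 or WT replicate 2, 3 or 4 (0.0591 to 0.0772). *Vip* kept its call without KI replicate 4 or WT replicate 4, and elsewhere its adjusted p ran from 0.0552 to 0.135. Leaving out KI replicates 2 and 3 and WT replicate 3, the marker-high libraries, kept KI replicates 1 and 4 and WT replicates 1, 2 and 4. *Calb2* was then the 1 member called, and over all genes the calls fell from 951 to 85. *Gad2* stood at 0.85 (adjusted p = 0.129), *Lamp5* at -0.85 (adjusted p = 0.154), *Gad1* at 0.42, *Slc32a1* at 0.39, *Sst* at 0.38 and *Vip* at -0.31. Of these, only *Vip* was smaller in size than with all libraries. The part of the smaller number of libraries in the lost calls was not tested. The 7 called members at PWK 28 kept their direction without the 2 marker-high WT libraries, and 6 of them were still called, *Pvalb* being the exception. That fit set all KI libraries against WT replicates 1 and 2 alone. *Reln* was then also called (0.41, adjusted p = 0.0391).

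**Figure D2:**
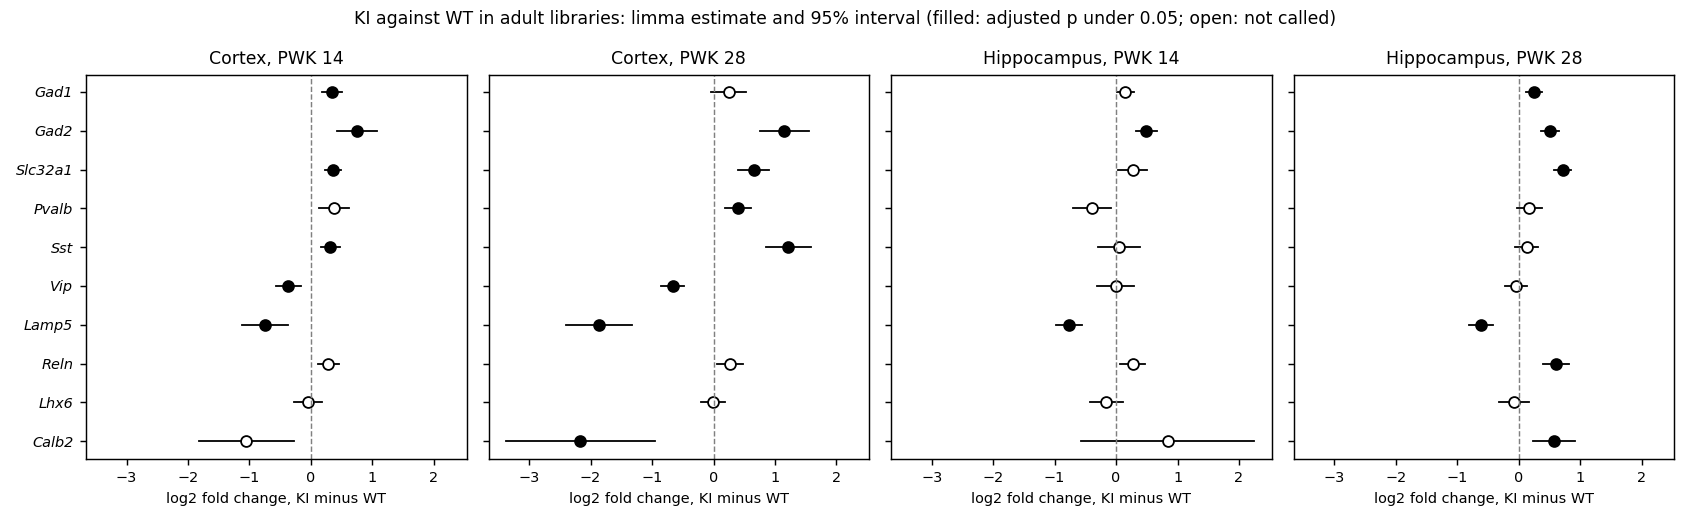
Log2 fold change of KI against WT (x axis, limma estimate with its 95% interval, n = 4 per group) for each member (y axis) in the adult comparisons; filled points passed an adjusted p of 0.05. *Gad2* lies above 0 and *Lamp5* below 0 in all 4 panels, and *Calb2* lies below 0 in the cortex and above 0 in the hippocampus.

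Within groups, cortical *Calb2* was highest in the libraries high in the olfactory bulb marker. At PWK 28 it was 166, 130, 145 and 107 in KI and 261, 258, 1397 and 1465 in WT cortex. *Cdhr1*, a cadherin of olfactory bulb output neurons, ranged from 95.02 to 298 in KI cortex and was 137, 115, 1576 and 1698 in WT cortex. The 2 WT libraries with high *Calb2* were those with high *Cdhr1*. KI replicates 1, 3 and 4 had more *Cdhr1* than WT replicates 1 and 2, but less *Calb2*. The log2 difference of *Calb2* was -2.17 (SE 0.55, adjusted p = 0.0184) over all libraries and -0.94 (adjusted p = 0.0324) without them. At PWK 7 the single high KI library (951, against 222 to 244 in the other 3) also had the highest *Cdhr1* of its age. At PWK 14 *Calb2* was 110, 127, 361 and 145 in KI and 288, 314, 573 and 264 in WT cortex, a difference of -1.05 that was not called (adjusted p = 0.113). Without KI replicate 3 it was -1.42 (adjusted p = 0.0107), and without all marker-high libraries -1.18 (adjusted p = 0.0475). Of the 4 olfactory bulb markers, none was at 0 in a cortical group at PWK 28, their sum ranged from 217 to 3064 in WT and from 283 to 594 in KI libraries, and their part in the *Calb2* difference beyond the fits without those libraries was not tested.

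**Figure D3:**
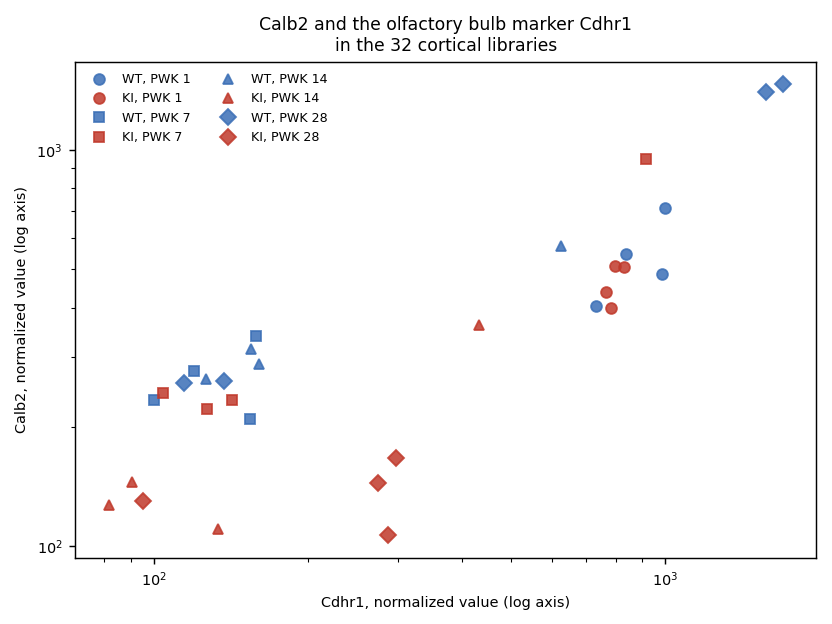
Normalized value of *Calb2* (y axis, log) against *Cdhr1* (x axis, log) in the 32 cortical libraries, with WT in blue, KI in red and symbols for age. The 2 WT libraries at PWK 28 with *Calb2* at 1397 and 1465 are also the highest for *Cdhr1*, and the KI libraries at PWK 28 lie between 107 and 166 for *Calb2*.

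Other marker lists were summed in the adult cortex. Striatal projection neuron genes, summed over 7 markers, ranged from 4772 to 5993 in WT and from 6028 to 19090 in KI cortex at PWK 14, and from 5921 to 11460 and from 9856 to 13100 at PWK 28. None of the 7 was at 0 in a group, and 1 of them was called higher at each age, *Ppp1r1b* (1.36 at PWK 14 and 1.10 at PWK 28), which encodes the phosphatase inhibitor DARPP-32. The striatal genes *Drd1* and *Penk* were not called there, at 0.20 and -0.07 at PWK 14 and 0.09 and -0.27 at PWK 28. At PWK 14 the glutamatergic list of 7 genes summed to 186300 to 205300 in WT and 158000 to 177000 in KI cortex, with 1 gene higher and 1 lower, none at 0. The choroid plexus list reached 21410 in WT replicate 2 at PWK 28 through its *Ttr* value of 20074. The part of these differences in the member results was not tested beyond the fits that left out libraries.

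**Figure D4:**
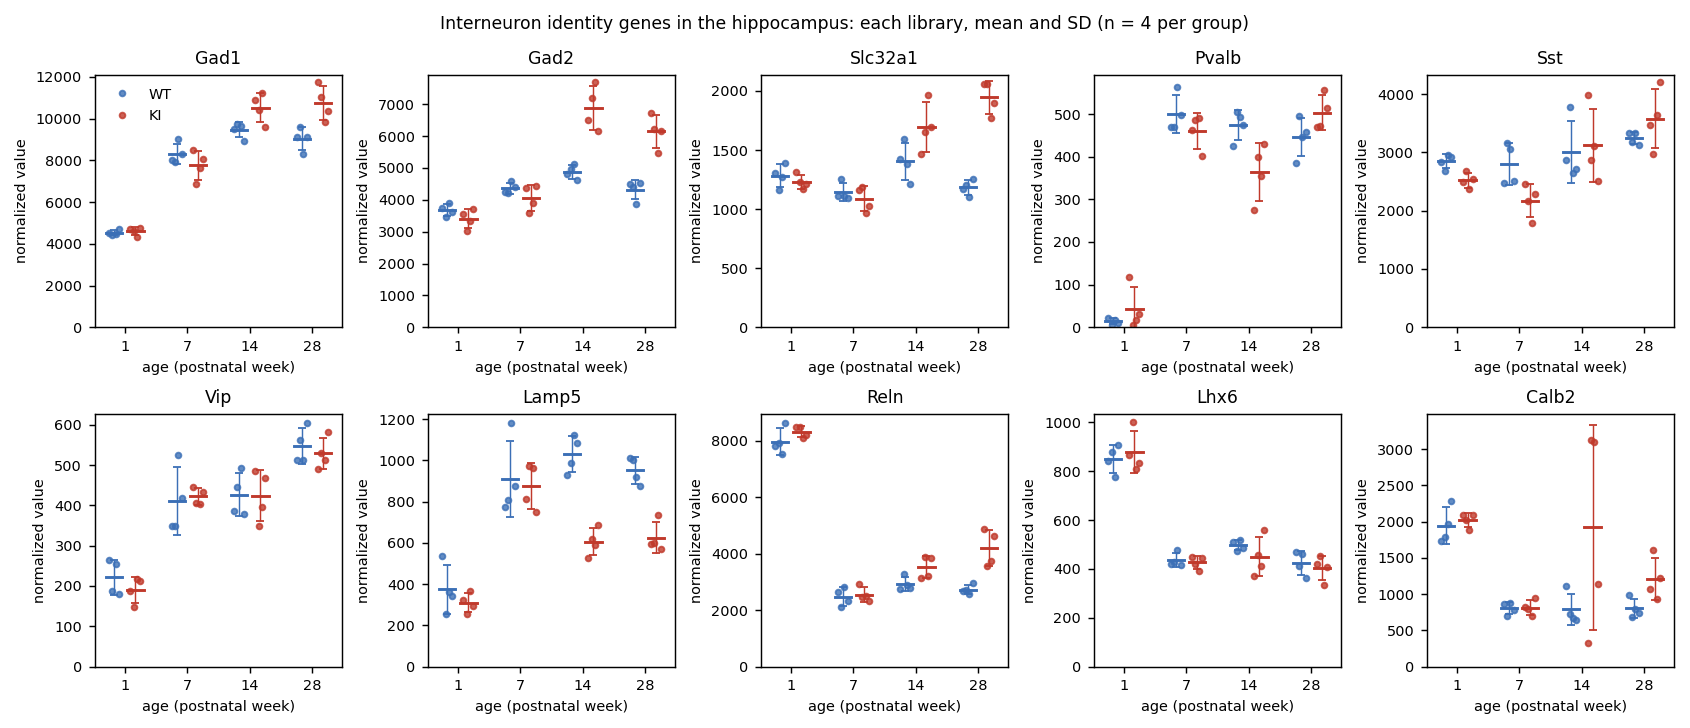
Normalized value (y axis, from 0) of each member in each hippocampal library by postnatal week (x axis), with WT in blue and KI in red; thick bars are means and thin bars SD (n = 4). KI *Gad2* lies above and KI *Lamp5* below every WT library at PWK 14 and PWK 28, and KI *Calb2* at PWK 14 runs from 323 to 3129.

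In the adult hippocampus *Gad2* rose and *Lamp5* fell as in the cortex, while *Sst* and *Vip* were not called. At PWK 14 these were the 2 members called, against 15.6% of all genes tested (7.64% higher, 7.95% lower), and the 2 whose libraries did not overlap, against 23.8%. *Gad2* was 6490, 7198, 7698 and 6160 in KI and 4807, 4957, 5135 and 4626 in WT hippocampus, a rise of 0.49 (SE 0.08, adjusted p = 0.00376). *Lamp5* was 528, 620, 590 and 684 in KI and 930, 988, 1121 and 1086 in WT hippocampus, a decrease of 0.77 (SE 0.10, adjusted p = 0.00169). The next in size were *Pvalb* at -0.40 (adjusted p = 0.0845), *Slc32a1* at 0.27 (adjusted p = 0.114) and *Reln* at 0.27 (adjusted p = 0.0757). *Calb2* varied most, with 323, 3129, 3100 and 1143 in KI and 1108, 728, 674 and 644 in WT hippocampus. The KI libraries spanned the WT range on both sides, and the difference of 0.84 was not called (adjusted p = 0.399). Without KI replicate 1 it was 1.53 (adjusted p = 0.0131). Across the 32 hippocampal libraries, which share dissection and tissue makeup, deviations of *Calb2* from the group mean ran with the summed immature granule neuron list (r = 0.793) and against the microglial list (r = -0.858). These were the highest and lowest r of 15 marker lists. The astrocyte (-0.744), thalamic neuron (-0.724) and hippocampus (0.662) lists came next. How far the widely spread KI libraries at PWK 14 set these values was not tested. The *Gad2* and *Lamp5* calls held in all 8 fits that left out 1 library. *Slc32a1* (adjusted p = 0.0415), *Reln* (0.0323) and *Calb2* were also called without KI replicate 1, and *Pvalb* (0.0489) without KI replicate 4.

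At PWK 28, 5 members rose and 1 fell in the hippocampus, against 15.8% of all genes (8.92% higher, 6.91% lower), and 5 did not overlap, against 21.5%. *Slc32a1* had the smallest adjusted p, with 2058, 2055, 1771 and 1898 in KI and 1173, 1201, 1102 and 1257 in WT hippocampus. All KI libraries lay above the WT libraries, by 0.72 (SE 0.06, adjusted p = 6.72e-05). *Gad2* was 6721, 6211, 5477 and 6172 in KI and 4480, 4412, 3865 and 4515 in WT hippocampus, a rise of 0.51 (SE 0.07, adjusted p = 0.000839). *Gad1* rose by 0.25 (adjusted p = 0.0195), from 9041 ± 543 to 10750 ± 821 (SD, n = 4), and this call was lost without WT replicate 3 (adjusted p = 0.0512). *Reln* was 4885, 3551, 3755 and 4617 in KI and 2682, 2712, 2556 and 2961 in WT hippocampus, a rise of 0.61 (SE 0.10, adjusted p = 0.00181). *Lamp5* was 593, 599, 737 and 572 in KI and 1012, 1002, 917 and 873 in WT hippocampus, a decrease of 0.61 (SE 0.09, adjusted p = 0.00119).

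*Calb2* rose by 0.57 at PWK 28 (adjusted p = 0.0299), with 1068, 1606, 930 and 1217 in KI and 987, 683, 795 and 741 in WT hippocampus. The groups overlapped, the call was lost without KI replicate 4 or without WT replicate 2, 3 or 4 (adjusted p from 0.0591 to 0.0809), and it was lost in a fit over all 64 libraries (adjusted p = 0.418). *Pvalb* (0.17, 95% interval -0.03 to 0.38), *Sst* (0.13, -0.06 to 0.32), *Vip* (-0.05, -0.23 to 0.13) and *Lhx6* (-0.08, -0.33 to 0.17) were not called. Of the striatal list, *Penk* and *Drd1* were higher in KI hippocampus at both ages. *Penk*, which encodes the enkephalin precursor, rose from 509 ± 81.6 to 4509 ± 2156 at PWK 14 and from 554 ± 150 to 2251 ± 144 at PWK 28 (SD, n = 4). The sum of that list ranged from 2170 to 3581 in WT and from 6855 to 9555 in KI hippocampus at PWK 14, and from 2583 to 3334 and from 5656 to 6821 at PWK 28, and 3 of its 7 genes were called higher at each age with none at 0 in a group. Glial lists also stood higher in KI hippocampus. The 5 astrocyte genes summed to 130900 to 156800 in WT and 204100 to 300500 in KI libraries at PWK 14 (2 called higher) and to 131800 to 140400 and 185200 to 216000 at PWK 28 (3 called higher). The 5 microglial genes summed to 6567 to 7680 in WT and 8458 to 8890 in KI libraries at PWK 28 (3 called higher), none of either list being at 0 in a group. The part of these lists in the member results was not tested.

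Whether the mutation acted differently in the cortex and hippocampus was tested as the KI effect in the hippocampus minus that in the cortex. At PWK 28, 4 members differed between the regions, against 4.57% of all genes tested: *Sst* (-1.09, SE 0.21, adjusted p = 0.00601), *Vip* (0.61, SE 0.12, adjusted p = 0.00679), *Lamp5* (1.25, SE 0.29, adjusted p = 0.0185) and *Calb2* (2.74, SE 0.64, adjusted p = 0.0196). The rise of *Sst* and the decrease of *Vip* were thus larger in the cortex, and the decrease of *Lamp5* was larger in the cortex though present in both. The *Calb2* estimates had opposite signs in the regions, and its call within the hippocampus was lost in several fits, as given above. The difference between regions was called for all 4 members in each of the 16 fits that left out 1 library. It was also called for all 4 without the marker-high libraries, where *Calb2* was at 1.51 (adjusted p = 0.0101). *Gad2* differed by -0.64 and was not called (adjusted p = 0.1), but was called at -0.83 without cortical KI replicate 2 (adjusted p = 0.002). *Slc32a1* differed by 0.06 (95% interval -0.23 to 0.35), *Reln* by 0.34 (adjusted p = 0.201), *Pvalb* by -0.22, *Lhx6* by -0.07 and *Gad1* by 0.004, none of them called. At PWK 14, *Pvalb* was the 1 member called, against 2.85% of all genes (-0.77, SE 0.19, adjusted p = 0.0371), and it was called in 6 of 16 fits without 1 library (adjusted p elsewhere from 0.0527 to 0.0809) and in neither the fit without marker-high libraries (-0.90, adjusted p = 0.104) nor the one over all 64 libraries (adjusted p = 0.404). *Calb2* stood at 1.89 (adjusted p = 0.218) and was called over all 64 libraries (adjusted p = 0.0415). The other members were at 0.36 (*Vip*), -0.02 (*Lamp5* and *Reln*), -0.09 (*Slc32a1*), -0.11 (*Lhx6*), -0.19 (*Gad1*), -0.26 (*Gad2*) and -0.27 (*Sst*). Both regions were taken from each mouse, and these fits treat their libraries as independent. With a replicate block 4 members were called at PWK 28 and 1 at PWK 14.

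Whether the adult differences grew with age was tested as the KI effect at PWK 28 minus that at PWK 14. No member was called in either region by limma, and no gene of the whole table was (0%). At an unadjusted p under 0.05 there were 4 members in the cortex and 3 in the hippocampus. How many of all genes met that unadjusted threshold was not counted, so no background stands beside these members. Cortical *Sst* had a difference of 0.90 (95% interval 0.49 to 1.31, adjusted p = 0.0827) and cortical *Lamp5* of -1.12 (95% interval -1.82 to -0.42, adjusted p = 0.149). Both were called in a fit over all 64 libraries (adjusted p = 0.00135 and 0.00987), without cortical KI replicate 2 at PWK 28 (adjusted p = 0.00055 and 0.00332) and without cortical KI replicate 1 at PWK 14 (adjusted p = 0.0318 and 0.0383). Neither was called in any other fit without 1 library. Without the marker-high libraries *Sst* was at 0.86 (adjusted p = 0.688) and *Lamp5* at -1.09 (adjusted p = 0.694). The other cortical members were at 0.40 (*Gad2*), 0.30 (*Slc32a1*), 0.04 (*Lhx6*), 0.02 (*Pvalb*), -0.02 (*Reln*), -0.10 (*Gad1*), -0.30 (*Vip*) and -1.12 (*Calb2*). In the hippocampus *Pvalb* was at 0.57 (adjusted p = 0.194), *Slc32a1* at 0.45 (adjusted p = 0.19, and 0.0463 over all 64 libraries) and *Reln* at 0.35 (adjusted p = 0.338), and the other 7 ran from -0.27 (*Calb2*) to 0.16 (*Lamp5*). Growth with age was thus not shown in the fit of the 16 libraries of a region.

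*Gad2* shifted relative to *Gad1*. In WT mice the ratio of their normalized values fell from 0.902 ± 0.106 at PWK 1 to 0.567 ± 0.0215 at PWK 7 in the cortex and from 0.810 ± 0.0441 to 0.525 ± 0.0113 in the hippocampus (SD, n = 4). At PWK 28 it was 0.468 ± 0.0506 in WT and 0.888 ± 0.183 in KI cortex, where the WT libraries reached at most 0.540 and the KI libraries started at 0.660. In the hippocampus it was 0.478 ± 0.0179 in WT and 0.572 ± 0.0173 in KI mice at PWK 28, and 0.516 ± 0.0116 and 0.654 ± 0.0453 at PWK 14, again without overlap. The ratio of *Slc32a1* to *Gad1* at PWK 28 was 0.131 ± 0.0161 in WT and 0.175 ± 0.0267 in KI cortex. The ratios are given as descriptions and were not tested.

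**Figure D5:**
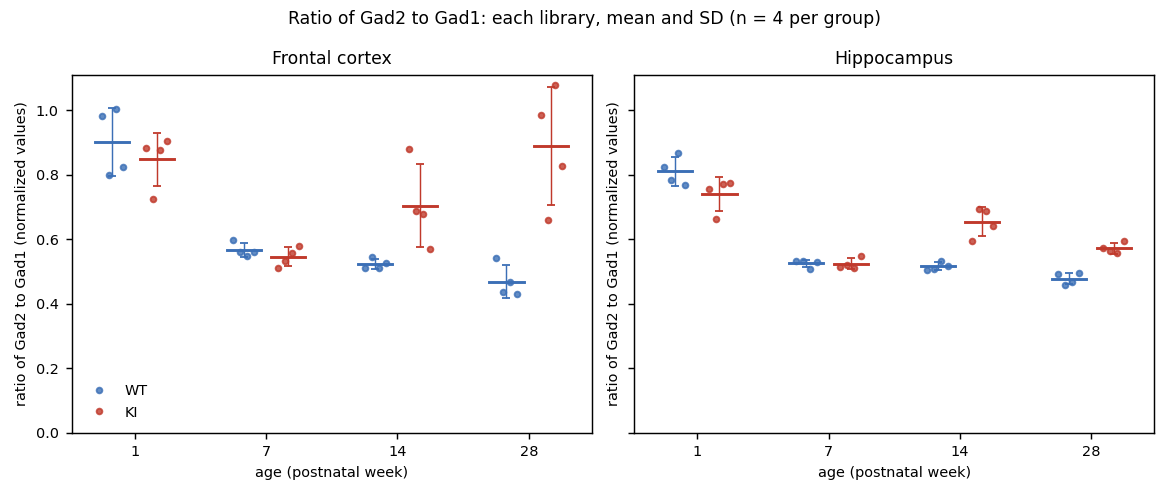
Ratio of the normalized values of *Gad2* to *Gad1* (y axis, from 0) in each library by postnatal week (x axis), with WT in blue and KI in red; thick bars are means and thin bars SD (n = 4). WT ratios fall from PWK 1 to PWK 7, while KI ratios at PWK 14 and 28 lie above the WT ratios of the same age in both regions.

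Further interneuron genes were followed with 46 companion genes that were not members. At PWK 1 and PWK 7 limma called none of them in either region. Between 2 and 6 per comparison had an unadjusted p under 0.05, again without a count of all genes at that threshold. In adult cortex 4 rose and 2 fell at PWK 14, against 5.18% of all genes called, and 14 rose and 6 fell at PWK 28, against 22.2%. Without the marker-high libraries these counts were 2 and 0 at PWK 14 and 6 and 1 at PWK 28. The background shrank too, since those smaller fits picked out 85 among 18347 genes for the earlier age and 1417 among 18380 for the later. In adult hippocampus 5 rose and 12 fell at PWK 14, against 15.6% of all genes, and 8 rose and 5 fell at PWK 28, against 15.8%. The counts by class that follow stand beside these same shares. The median log2 difference over these genes was 0.02 and -0.05 in the cortex and -0.18 and -0.03 in the hippocampus.

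The companions of *Sst* cells included the genes that rose most. Of 8 listed, 3 rose and 0 fell in the cortex at PWK 14, 4 and 0 at PWK 28, 2 and 1 in the hippocampus at PWK 14, and 3 and 1 at PWK 28. *Npy*, a neuropeptide of many *Sst* and neurogliaform cells that dentate granule cells can also make, rose by 0.66 and 1.92 in the cortex and by 3.14 and 2.28 in the hippocampus, where it went from 680 ± 78.4 to 6653 ± 3130 at PWK 14 and from 743 ± 40.5 to 3628 ± 471.5 at PWK 28 (SD, n = 4). *Crhbp*, which encodes a binding protein for corticotropin-releasing hormone, rose by 1.17 and 1.98 in the cortex and by 1.27 and 1.18 in the hippocampus. *Nos1*, the neuronal nitric oxide synthase, was the third at PWK 14 in the cortex with 0.77 (adjusted p = 0.00291). Without the marker-high libraries *Nos1* (adjusted p = 0.0842) and *Npy* (adjusted p = 0.113) lost their calls in the cortex at PWK 14. The *Npy* call in the cortex at PWK 14 was lost in 4 of 8 fits without 1 library (adjusted p up to 0.0867), and that of *Crhbp* in the hippocampus at PWK 14 in 3 of 8 (up to 0.0656). *Rab3b*, a vesicle GTPase of the same list, fell by 0.64 and by 0.26 in the hippocampus, kept in 4 and 3 of 8 such fits.

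Of 6 companions of *Vip* and *Cck* cells, 0 were called in the cortex at PWK 14, 3 rose and 1 fell there at PWK 28, and 1 rose and 1 fell in the hippocampus at each age. *Tac2*, which encodes neurokinin B, rose by 1.33 in the cortex at PWK 28 and by 1.51 and 1.33 in the hippocampus, so that it moved opposite to *Vip* in the cortex. *Crh*, the stress-response peptide, fell by 0.77 in the cortex at PWK 28 (adjusted p = 0.0328), a call kept in 2 of 8 fits without 1 library. The *Tac2* call in the cortex was lost without KI replicate 3 (adjusted p = 0.0525), and without the marker-high libraries both *Tac2* (adjusted p = 0.116) and *Crh* (adjusted p = 0.252) lost their calls. Of the 3 companions of neurogliaform cells, the receptor tyrosine kinase gene *Kit* fell together with *Lamp5*, by 0.52 and 0.91 in the cortex and by 0.58 and 0.26 in the hippocampus. In all, 0 rose and 1 fell in the cortex at each age, and 1 rose and 1 fell in the hippocampus at each age. The gene that rose there was *Id2*, opposite to *Kit*, by 0.55 (adjusted p = 0.00216) and 0.29 (adjusted p = 0.027). Its PWK 28 call was kept in 3 of 8 fits without 1 library. The *Kit* call at PWK 14 in the cortex was lost in 5 of 8 fits without 1 library and without the marker-high libraries (adjusted p = 0.13).

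Among 16 interneuron transcription factors, 1 rose and 0 fell in the cortex at PWK 14, 2 and 2 at PWK 28, 1 and 4 in the hippocampus at PWK 14, and 1 and 0 at PWK 28. At PWK 28 these were 4 of 16 in the cortex, near the 22.2% of all genes, and 1 of 16 in the hippocampus, where 15.8% of all genes were called. *Etv1* fell by 0.56 in the cortex at PWK 28, a call lost without the marker-high libraries (adjusted p = 0.14), and *Sp8* by 1.46 and *Dlx2* by 0.85 in the hippocampus at PWK 14. *Sp8* was low, at 61.6 ± 23.6 in WT and 21.8 ± 10.9 in KI hippocampus (SD, n = 4), and its call was kept in 2 of 8 fits without 1 library. Of 8 companions of *Pvalb* cells, 0 were called in the cortex at PWK 14, 3 rose and 1 fell at PWK 28, 0 rose and 2 fell in the hippocampus at PWK 14, and 1 rose and 1 fell at PWK 28. *Slc6a11*, which encodes an astrocytic GABA transporter, fell by 0.63 in the hippocampus at PWK 14 and by 0.35 at PWK 28. In the cortex it fell by 0.34 at PWK 28 (adjusted p = 0.0428). That cortical call was kept in 2 of 8 fits without 1 library and lost without the marker-high libraries (adjusted p = 0.337).

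To place each member among all genes, deviations from the group means on the log2 scale were compared over the 64 libraries with the 12819 genes of mean value at least 100. These Pearson correlations describe libraries that share dissection, tissue makeup and depth. The nearest genes of *Gad1* were *Gad2* (r = 0.753) and *Tmx4* (0.711), and those of *Gad2* were *Rhbdl3* (0.816) and *Scg2* (0.806), the latter encoding a secretogranin of dense-core vesicles. *Sst* was nearest to *Npy* (0.774) and *Crhbp* (0.736), and *Slc32a1* to *Kcnip1* (0.664) and *Necab2* (0.629). *Lamp5* was nearest to *Camk2n1* (0.799), an inhibitor of CaM kinase II, and *Kcnh3* (0.754), and *Calb2* to *Cdhr1* (0.776) and *Amigo2* (0.747). *Pvalb* had the myelin gene *Mog* (0.705) and *Zmat4* (0.63), *Vip* had *Mrps31* (0.606) and *Prkacb* (0.575), *Reln* had *Gjd2* (0.585) and *Gm9954* (0.553), and *Lhx6* had *Sema4g* (0.625) and *Ypel1* (0.582).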

How the data were processed

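RNA was extracted from frontal cortex and hippocampus and sequenced as 64 bulk libraries. Per the submitters' processing notes and the study's methods, the authors estimated transcript abundance with Salmon (0.11.2 in the notes) on GRCm38, imported it by gene and normalized it with DESeq2 (1.19.11 in R 3.6.0). The deposited table holds this normalized signal, not raw counts: the estimated count of a gene divided by factors computed over all libraries. Whole reads were not recovered, because the low values of a library came within 0.1 of whole reads in 30.3% to 64.3% of cases (20% would by chance). Low steps gave an estimated 25.1 to 36.9 M reads per library, so precision was judged from the spread between libraries. The lowest gene mean was 4.25, so low genes had been removed before deposit. No column was left unassigned. GENCODE names for GRCm38 matched 18420 of 18432 IDs.

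Groups came from the labels. Each comparison was fitted with limma-trend (limma 3.58.1 under R 4.3.3). Values were log2-transformed after adding 1, and the fit ran over genes with a mean of at least 1, with Benjamini-Hochberg adjustment over all genes tested and a threshold of 0.05. Alternatives were other pseudocounts, filters and scaling, all libraries in 1 fit, a replicate block and leaving out libraries. Fold changes are on this scale, which understates low genes. A KI comparison used the 8 libraries of its region and age, WT ages the 16 WT libraries of a region, WT regions the 8 libraries of PWK 1 or the 24 adult libraries with age as a term, and interactions the 16 libraries concerned. The script was tested on simulated data. Summaries used Python 3.11.15 and pandas 2.3.3. Levels per kilobase divide by the longest coding transcript. By rule the text names the 10 members (those not called in KI mice at PWK 1 and 7 largely as counts). It also names the 3 companions called with the largest change in each direction per KI comparison, and the 2 genes nearest to each member. *Cdhr1*, *Adora2a*, *Ttr*, *Ppp1r1b*, *Penk*, *Drd1*, *Id2* and the region markers were named after their values were seen. The members, companion lists and marker lists were chosen with earlier results of these data known. Of the companions, 1 gene named by this rule is not reported here. Separate mice stand behind the replicates of a group. For the WT regions at PWK 1, deviations of libraries with the same replicate number all correlated over 0.1 (0.102 to 0.256). At PWK 28 this held for the KI regions (0.239 to 0.443) and not for the WT regions. KI and WT pairs of a region come from different mice and reached 0.376. These correlations thus do not show that a replicate number marks the same mouse.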

Additional observations from a re-analysis of the deposited data

Results flagged for a closer look

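In 12 of 160 groups of 4 libraries, the highest or lowest library of a member lay farther from the others than Dixon's test allows; chance flags about 1 group in 20. The cortical cases at PWK 1 and 7 were *Gad1* in WT replicate 1 at PWK 1 (4394), a library high in striatal markers, *Calb2* in KI replicate 1 at PWK 7 (951), a library high in *Cdhr1*, and *Lhx6* in KI replicate 2 at PWK 7 (445). At PWK 14 they were *Calb2* in KI replicate 3 (361) and WT replicate 3 (573), both high in *Cdhr1*, *Lhx6* in KI replicate 3 (630) and *Reln* in KI replicate 1 (4068). At PWK 28 they were *Lamp5* in KI replicate 2 (2898) and *Lhx6* in WT replicate 1 (441). The hippocampal cases were *Slc32a1* in WT replicate 2 at PWK 7 (1258), *Gad2* in WT replicate 3 at PWK 28 (3865) and *Lamp5* in KI replicate 3 at PWK 28 (737).

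The effect of the mutation differed between hippocampus and cortex for 5 member results under the interaction term. At PWK 28 the hippocampal minus cortical log2 effect was -1.09 for *Sst*, 0.61 for *Vip*, 1.25 for *Lamp5* and 2.74 for *Calb2*. At PWK 14 it was -0.77 for *Pvalb*.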

How the results depend on the processing

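With pseudocounts of 0.5 and 10 no member call changed, nor did any of the 177 member results that a minimum mean of 30 left (it removed *Pvalb* from the 3 comparisons of PWK 1 libraries alone), and no called value changed sign under any alternative. Among the 2315 values that were called in neither fit, 126 changed sign. Adult KI counts kept their size except where given. Members called in KI cortex at PWK 14 went from 6 to 1, and those for genotype by region at PWK 14 from 1 to 0, without the marker-high libraries. This alternative was chosen after seeing the data and left fewer libraries in a fit. It also gave 1 in place of 2 for WT cortex between PWK 7 and 28, and 5 in place of 8 for the adult WT regions. Total-sum scaling gave 5 for the adult WT regions and 2 in place of 1 for WT hippocampus between PWK 7 and 28. A fit over all 64 libraries gave 4 in place of 2 for KI hippocampus at PWK 14, 2 in place of 0 for genotype by age in the cortex and 1 in place of 0 in the hippocampus. That fit also called *Gad1* (adjusted p = 0.0296) and *Reln* (0.0305) in KI cortex at PWK 28, *Gad2* for genotype by region at PWK 28 (0.0288), and *Reln* (0.0472) and *Calb2* (0.0474) in WT cortex between PWK 7 and 28. With no filter on low values, *Vip* in KI cortex at PWK 14 lost its call (adjusted p = 0.0588). The cause of these shifts was not tested.

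Without 1 library, the members called ranged from 0 to 0 (cortex), 0 to 0 (hippocampus) at PWK 1, 0 to 1 and 0 to 0 at PWK 7, 1 to 7 and 2 to 5 at PWK 14, and 7 to 8 and 4 to 6 at PWK 28 for KI against WT. They ranged from 8 to 9 in both regions for WT PWK 7 against 1, from 1 to 4 (cortex) and 0 to 2 (hippocampus) for PWK 28 against 7, from 5 to 6 (PWK 1) and 7 to 8 (adult) for the WT regions, from 0 to 2 (PWK 14) and 4 to 5 (PWK 28) for genotype by region, and from 0 to 2 (cortex) and 0 to 0 (hippocampus) for genotype by age.

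The replicate numbers were not shown to pair the libraries of a comparison: 10 of 32 KI and WT pairs and 17 of 32 cortex and hippocampus pairs had correlated deviations over 0.1. With a replicate block, WT cortex between PWK 7 and 28 had 1 member called in place of 2, and the other member counts stayed within 1.5 times, with 7 and 8 for KI cortex at PWK 14 and 28 and 2 and 5 for KI hippocampus. With the block, the calls of *Vip* in WT cortex between PWK 7 and 28 (adjusted p = 0.0659), *Vip* in KI cortex at PWK 14 (0.0956), *Calb2* in KI hippocampus at PWK 28 (0.0549) and *Gad2* between the adult WT regions (0.0812) were lost. In KI cortex *Reln* was called at PWK 14 (0.0484) and 28 (0.0477) and *Calb2* at PWK 14 (0.0112), and between the WT regions at PWK 1 *Pvalb* was called (0.0434). Total-sum scaling moved the share of higher calls among all genes called from 47.8% to 60.4% (PWK 14) and from 54.8% to 43.7% (PWK 28) in KI cortex and from 56.3% to 40.6% in KI hippocampus at PWK 28. For WT ages 28 against 7 it moved from 47.9% to 59.1% in the cortex and from 43.2% to 55.4% in the hippocampus, for the WT regions at PWK 1 from 46.3% to 66.6%, and for genotype by region at PWK 14 from 57.7% to 47.2%.

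Over all genes, the marker-high libraries left out took the calls from 951 to 85 and from 4081 to 1417 in KI cortex at PWK 14 and 28, from 3769 to 2174 for WT cortex between PWK 7 and 28, and from 525 to 52 for genotype by region at PWK 14. The fit over all 64 libraries took them from 951 to 1946 (KI cortex, PWK 14), from 2870 to 6050 (KI hippocampus, PWK 14), from 3216 to 2118 (WT hippocampus, PWK 28 against 7), and from 525 to 2000 and 841 to 1320 (genotype by region, PWK 14 and 28), and from 0 to 913 (cortex) and 0 to 469 (hippocampus) for genotype by age. The replicate block took those in KI hippocampus at PWK 14 from 2870 to 1788.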
